A study of Mus musculus with 8 samples.

Results

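The genes described here encode the translation initiation, elongation, and release factors of the mouse, chosen by gene symbol. They are the rows whose symbol begins with Eif or Eef followed by a digit, together with Etf1, Gspt1, and Gspt2, without Eif2s3x and Eif2s3y. By this rule, 65 of the 24354 genes of the expression table were members, and the rule reads the symbol alone. The study fused extended pluripotent stem cells (EPSCs) with neural stem cells (NSCs) and used RNA sequencing to ask how far the hybrid cells had taken on the expression state of EPSCs. It holds 8 libraries in 4 groups of 2, and all groups were labelled undifferentiated. Embryonic stem cells (ESCs) were wild-type cells of the E14 line. The NSCs carried the OG2 and ROSA transgenes, that is Oct4-GFP and a lacZ insertion, in heterozygous form. EPSCs were wild type and derived from embryos of BL6 mice in LCDM medium, and hybrid cells were tetraploid cells of 1 EPSC-NSC fusion line, picked for Oct4-GFP and kept in the same medium. Both libraries of a group carry the name of the same line. The paper states that RNA sequencing was done in duplicate, and a figure caption on expression values gives 2 independent experiments. Separate cultures are not mentioned, so that p-values describe the spread between these libraries only. ESCs, EPSCs, and hybrid cells grew on inactivated mouse embryonic fibroblasts, and NSCs on gelatin.

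Translation begins when the small ribosomal subunit, loaded with initiator tRNA by the GTP-bound factor eIF2 and held by the large scaffold eIF3, is recruited to the mRNA cap by the eIF4 factors and scans to a start codon. Elongation factors then deliver aminoacyl-tRNA and move the ribosome along the message, and release factors free the finished protein at the stop codon. The pathway is held back at a few known points, where kinases phosphorylate eIF2 alpha, where 4E-binding proteins compete with eIF4G for the cap-binding protein eIF4E, and where the kinase eEF2K inactivates eEF2. Pluripotent stem cells are known for rapid division, which draws on a large supply of ribosomes and of these factors.

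Expression was deposited as FPKM (fragments for each kilobase of a transcript, scaled to 1000000 fragments), which allows levels of genes of different length to be compared. The steps between low FPKM values placed the depth between 22.1 and 32.7 in units of 1000000 fragments, and 3 fragments on a 2-kb transcript then amount to 0.051 to 0.0755 FPKM, a limit that reflects counting error alone. Summed FPKM of 8 pluripotency markers lay between 4659.1 and 5685.1 in ESCs, EPSCs, and hybrid cells and between 0.519 and 0.55 in NSCs, where Pou5f1, Zfp42, Dppa5a, Tdgf1, Utf1, and Sall4 were listed at 0. The 10 neural stem cell markers summed to 4386.5 and 4438.5 FPKM in NSCs and to 12.8 to 28.3 in the other groups. The 10 fibroblast markers summed to 13.4 to 14.6 FPKM in ESCs, 4.09 to 4.13 in NSCs, where Col1a2, Lum, and Twist2 were at 0, 84.6 to 86.5 in EPSCs, and 244 to 327 in hybrid cells. These markers include Postn, which the paper treats as specific to EPSCs, and Pdgfra, which was highest in NSCs at 3.13 and 2.91 FPKM. The sum is thus not a measure of feeder cells alone. Of the 65 genes, 42 shared no 100-base window of their transcripts with another annotated gene, and 7 shared over 10%, namely Eif1, Eif3j1, Eif3j2, Eif4a1, Eif4ebp3, Eef1a1, and Eef1g. Fibroblast markers moved with the hybrid cell group, and their part in the differences below was not tested. Fewer cells of a type and less RNA per cell cannot be told apart in such bulk libraries, and neither can the amount of mRNA per tetraploid cell be read from FPKM.

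In FPKM, the 65 genes summed to 11120 and 11107 in NSCs, against 21771 and 21206 in ESCs, 24258 and 22254 in EPSCs, and 24194 and 23292 in hybrid cells. NSCs thus held the lowest sums. As the FPKM of all genes also summed lower in NSC libraries, the share of the 65 genes was compared as well, at 3.52% and 3.53% in ESCs, 2.68% and 2.67% in NSCs, 3.71% and 3.59% in EPSCs, and 3.76% and 3.67% in hybrid cells. The NSC libraries were lowest by this share too, without overlap with the other groups. Eef1a1, which brings aminoacyl-tRNA to the ribosome, alone made up 33.8% to 40.9% of the summed FPKM of the 65 genes in every library.

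Against NSCs, most of these genes were higher in each of the 3 pluripotent groups, namely ESCs, EPSCs, and hybrid cells. Genes were called with limma on log2(FPKM + 1) at a Benjamini-Hochberg adjusted p under 0.05, over the 13239 genes whose group mean reached 1 FPKM in any group. Of the 65 genes, 62 passed this filter on low values, and Eef1a2, Eif4e1b, and Eif4e3 did not. In EPSCs, 49 of the 62 were higher than in NSCs, 6 were lower, and 7 were not called, whereas 45.2% of all genes tested were higher and 41% lower. In hybrid cells, 46 were higher and 7 lower than in NSCs, against 44.5% and 42% of all genes. In ESCs, 46 were higher and 8 lower than in NSCs, against 42.8% and 41.9% of all genes. The median log2 fold change of the 62 genes was 1.10 for EPSCs, 1.09 for hybrid cells, and 0.88 for ESCs, and that of all genes was 0.08, 0.06, and 0.03. These 3 comparisons share the NSC libraries, so that their counts are not independent of each other.

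The split between higher and lower genes against NSCs depended on how libraries were scaled. With FPKM scaled to a sum of 1000000 in each library, the median of all genes moved to −0.50 in hybrid cells, −0.48 in EPSCs, and −0.46 in ESCs, all against NSCs. On that scale, 63 of the 65 genes passed the filter, and 39 were higher and 16 lower in hybrid cells, 36 higher and 19 lower in EPSCs, and 36 higher and 18 lower in ESCs. Relative to the median of all genes, the median of the translation factor genes was then 0.98 in hybrid cells, 0.97 in EPSCs, and 0.80 in ESCs, where FPKM as deposited gave 1.03, 1.02, and 0.84. After quantile normalization, the counts were 41 higher and 11 lower in hybrid cells, 40 and 11 in EPSCs, and 38 and 14 in ESCs, and the median relative to all genes was 0.61, 0.58, and 0.51. Shares of all genes called by limma are given for FPKM as deposited only. Counts under other scalings are therefore set beside medians. Among the translation factor genes called against NSCs over the 3 comparisons, scaling to a common sum reversed 24 directions and quantile normalization 13, and these are named with their role below.

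**Figure D1:**
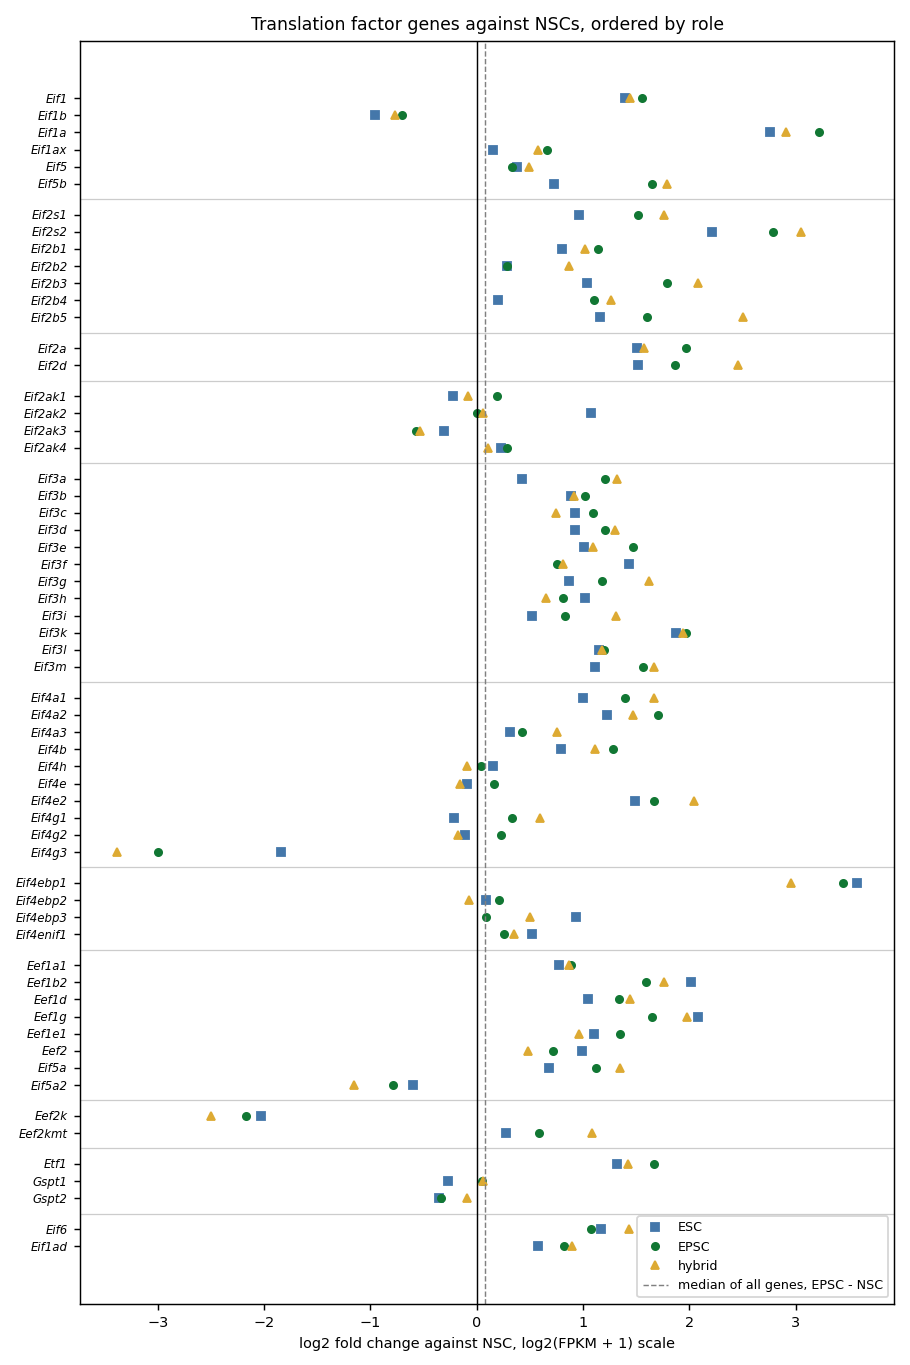
Log2 fold change against NSCs (x axis, log2(FPKM + 1) scale) of the genes passing the filter, ordered by role, for ESCs (squares), EPSCs (circles), and hybrid cells (triangles), without Eif3j1 and Eif3j2. Most genes lie to the right of the dashed line, the median of all genes in EPSCs, while Eif4g3 and Eef2k lie at −1.85 or lower. Some points change side when libraries are scaled differently.

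Between the 3 pluripotent groups, the differences were smaller. Hybrid cells and EPSCs differed in 33 of the 62 genes, 17 higher and 16 lower in hybrid cells, against 22.5% and 21.9% of all genes tested. A fit of these 2 groups alone called 19, 10 higher and 9 lower, and requiring a change over 2-fold left 0 of the 33. The median log2 fold change of the 62 genes was 0.06, that of all genes 0.00, and the range from −0.49 to 0.90. The median of the 62 genes was 0.02 without hybrid cell replicate 1 and 0.00 without EPSC replicate 2. EPSCs were higher than ESCs in 34 genes and lower in 9, against 33.7% and 27.3% of all genes, with a median of 0.25 against 0.04 for all genes. Scaling to a common sum gave 31 higher and 14 lower in that comparison, and quantile normalization 27 and 15. Hybrid cells were higher than ESCs in 29 genes and lower in 15, against 35.3% and 30.2% of all genes, with a median of 0.17 against 0.04, and quantile normalization gave 26 higher and 22 lower. The medians of EPSCs and of hybrid cells against ESCs were 0.09 and 0.05 after quantile normalization, and 0.19 and 0.08 after scaling to a common sum. Those of all genes lay between −0.01 and 0.01 under both scalings. The share of translation factor genes lower in hybrid cells than in EPSCs was 25.8%, near that of all genes.

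The study's methods defined differential expression by size alone, here applied as a ratio of group means over 3 with the higher mean above 3 FPKM. None of the 65 genes met this rule between hybrid cells and EPSCs, where 0.866% of all genes did. For this rule, all genes are the 24354 of the expression table, of which 5210 were at 0 in every library. Genes under the filter on low values cannot meet the rule, whereas 62 of the 65 genes passed that filter. The shares of all genes given for the rule are thus lower than those among expressed genes would be. Between hybrid cells and NSCs, 18 genes met it, 16 higher and 2 lower in hybrid cells, where 15.8% of all genes did. EPSCs and NSCs differed by the rule in 17 genes, 15 higher and 2 lower in EPSCs, against 15.6% of all genes. For ESCs and NSCs, there were 9 genes, 6 higher and 3 lower in ESCs, against 15% of all genes. Eif3j1 is counted in both of the last comparisons but shares sequence with Eif3j2, and with the values of both summed, 16 genes differed between EPSCs and NSCs, 14 higher and 2 lower, and 8 between ESCs and NSCs, 6 higher and 2 lower. Only Eif3j1 met the rule between EPSCs and ESCs, against 2.57% of all genes, and Eif3j1 and Eif4g3 met it between hybrid cells and ESCs, against 3.63% of all genes. The 2 genes lower in both EPSCs and hybrid cells than in NSCs were Eif4g3 and Eef2k. With FPKM scaled to a common sum, 8 genes met the rule between hybrid cells and NSCs, 5 between EPSCs and NSCs, and 6 between ESCs and NSCs. Of all genes, 20.6%, 20.1%, and 19.5% met it on that scale.

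Several pairs of genes of related or opposed function moved in opposite directions against NSCs with FPKM as deposited. Among them were Eif1 and its paralog Eif1b, Eif4g1 and its paralog Eif4g3 in EPSCs and hybrid cells, Eif5a and its paralog Eif5a2, and Eef2 and its inhibitory kinase Eef2k. The opposition of Eif1 and Eif1b held under each scaling. Eif4g1 turned lower than NSCs under scaling to a common sum, at −0.28 in EPSCs and −0.02 in hybrid cells, and in EPSCs also after quantile normalization, at −0.23. Eef2 turned lower after quantile normalization, at −0.97 in hybrid cells, −0.72 in EPSCs, and −0.42 in ESCs, as did Eif5a in ESCs and EPSCs. For 3 of these pairs, chosen after their values were seen, the 100 bases before a start site are shown to compare genes that moved in opposite directions, taken from RefSeq on GRCm38.p6, all on the plus strand and written 5′ to 3′. Capitals mark 3 promoter motifs that were searched on both strands. The first was the palindromic E-box, spelled CACGTG. The second was the CCAAT box, which reads ATTGG when it lies on the other strand of the promoter. The third was an ETS-type motif, spelled CCGGAA. Its form for the other strand, with which it can overlap, is TTCCGG. For Eif4g3 the promoter table lists 2 start sites and for Eef2k 3, and the one listed first is shown for each. The annotated spans of Eif4g1, Eif4g3, and Eef2k begin upstream of the start site shown, so that it is not the first start of these genes.
Eif1: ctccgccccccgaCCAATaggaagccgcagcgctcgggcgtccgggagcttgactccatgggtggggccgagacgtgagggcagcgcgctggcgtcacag
Eif1b: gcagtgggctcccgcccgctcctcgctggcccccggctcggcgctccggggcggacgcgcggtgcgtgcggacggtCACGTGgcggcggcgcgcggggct
Eif4g1: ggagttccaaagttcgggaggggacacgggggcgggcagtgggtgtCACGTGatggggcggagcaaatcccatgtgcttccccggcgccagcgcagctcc
Eif4g3: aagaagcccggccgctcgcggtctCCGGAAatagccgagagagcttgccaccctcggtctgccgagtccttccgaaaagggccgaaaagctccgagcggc
Eef2: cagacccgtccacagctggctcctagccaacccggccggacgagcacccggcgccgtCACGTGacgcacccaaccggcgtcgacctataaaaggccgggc
Eef2k: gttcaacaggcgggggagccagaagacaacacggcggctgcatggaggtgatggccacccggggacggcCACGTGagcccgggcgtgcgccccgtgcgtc

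These stretches lie at chr11:100319849-100319948 for Eif1, chr9:120492506-120492605 for Eif1b, chr16:20672627-20672726 for Eif4g1, chr4:137993355-137993454 for Eif4g3, chr10:81176531-81176630 for Eef2, and chr7:120842731-120842830 for Eef2k. Their GC content was between 65% and 84%, highest upstream of Eif1b. The E-box was present upstream of Eif1b, Eif4g1, Eef2, and Eef2k, so that of these pairs only Eef2 and Eef2k held it on both sides. In windows of 300 bases, 250 before and 50 after a start site, RefSeq gave 64 windows for 49 of the 65 genes. CACGTG was found in 21.9% of these 64 windows and in 7.15% of the 32851 windows of all genes. CCGGAA or its complement was found in 45.3% of the windows against 14.9% of all, and CCAAT or its complement in 25% against 37.4%. These are letter matches in a window and describe no binding, and windows of one gene can overlap. The windows of all genes were not matched to those of the 49 genes in base content or level of expression, and enrichment was not tested.

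Among the factors of scanning and start codon choice, 5 of 6 genes rose above NSCs in EPSCs, 5 of 6 in hybrid cells, and 4 of 6 in ESCs, against 45.2%, 44.5%, and 42.8% of all genes tested. Eif1, whose product keeps the scanning ribosome open until a start codon is met, was at 618 and 601 FPKM in ESCs, 221 and 240.3 in NSCs, 679.5 and 679 in EPSCs, and 623 and 629.6 in hybrid cells. Every NSC library was below every library of the other groups. Its log2 fold change against NSCs, on the log2(FPKM + 1) scale used throughout, was 1.40 for ESCs, 1.55 for EPSCs, and 1.44 for hybrid cells (SE 0.06, limma adjusted p at most 1.97e-07), where SE is the standard error. Eif1b, which encodes a near copy of the protein, was at 36.0 and 37.4 FPKM in ESCs, 72.5 and 71.8 in NSCs, 48.5 and 40.0 in EPSCs, and 43.2 and 40.5 in hybrid cells. Its NSC libraries were above all others. The log2 fold change of Eif1b against NSCs was −0.96 for ESCs, −0.70 for EPSCs, and −0.77 for hybrid cells (SE 0.09, limma adjusted p at most 0.000143). Both directions held under each scaling.

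Eif1a and Eif1ax encode 2 nearly identical forms of eIF1A, which works with eIF1 on the small subunit, and Eif1ax is the copy on the X chromosome. Eif1a was at 138 and 137 FPKM in ESCs, 18.7 and 20.4 in NSCs, 192 and 189 in EPSCs, and 149 and 157 in hybrid cells. Its NSC libraries were far below all others, with a log2 fold change against NSCs of 2.76 for ESCs, 3.22 for EPSCs, and 2.91 for hybrid cells (SE 0.06, limma adjusted p at most 9.41e-09). EPSCs were also above ESCs (log2 fold change 0.46, SE 0.06, limma adjusted p = 0.000399), and hybrid cells were below EPSCs (log2 fold change −0.31, SE 0.06, limma adjusted p = 0.00463). Eif1ax was at 156 and 153 FPKM in ESCs, 139 and 139 in NSCs, 240.4 and 204 in EPSCs, and 217 and 201 in hybrid cells, so that NSCs were lowest here too but by a much smaller margin. For Eif1ax, EPSCs exceeded NSCs (log2 fold change 0.66, SE 0.08, limma adjusted p = 0.000112), as did hybrid cells (log2 fold change 0.58, SE 0.08, limma adjusted p = 0.000254), whereas ESCs were not called (log2 fold change 0.15, SE 0.08, limma adjusted p = 0.121). After scaling to a common sum, the difference of Eif1ax between hybrid cells and NSCs was −0.04, so that its direction was not held. Its call in EPSCs was lost under both scalings, with an adjusted p of limma of 0.441 and 0.246.

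Eif5b, whose GTPase joins the ribosomal subunits, was at 22.8 and 20.4 FPKM in ESCs, 12.6 and 12.7 in NSCs, 43.5 and 39.8 in EPSCs, and 48.3 and 43.7 in hybrid cells. The 4 groups were ordered NSCs, ESCs, EPSCs, and hybrid cells without overlap, but EPSCs and hybrid cells were not called different (log2 fold change 0.14, SE 0.08, limma adjusted p = 0.202). EPSCs were higher than ESCs (log2 fold change 0.92, SE 0.08, limma adjusted p = 8.44e-05). Eif5, the activator of the GTPase of eIF2, had mean values between 89.2 FPKM in NSCs and 126 FPKM in hybrid cells. Its calls against NSCs reversed under scaling to a common sum in all 3 comparisons, and in EPSCs also after quantile normalization.

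All 7 genes of eIF2 and its exchange factor eIF2B were higher than in NSCs in each of the 3 comparisons, against 42.8% to 45.2% of all genes, although Eif2b2 turned lower in EPSCs and ESCs, and Eif2b4 in ESCs, when libraries were scaled to a common sum. eIF2 carries the initiator tRNA, and eIF2B reloads eIF2 with GTP. Eif2s2, the beta subunit of eIF2 (chr2:154871410-154892906 on GRCm38), was at 352 and 347 FPKM in ESCs, 72.2 and 77.6 in NSCs, 523 and 518 in EPSCs, and 594 and 662 in hybrid cells. The groups did not overlap and stood in the order NSCs, ESCs, EPSCs, and hybrid cells. Against NSCs, its log2 fold change was 2.21 for ESCs, 2.78 for EPSCs, and 3.05 for hybrid cells (SE 0.07, limma adjusted p at most 4.62e-08). Hybrid cells were above EPSCs as well (log2 fold change 0.27, SE 0.07, limma adjusted p = 0.0148), a call that was lost with the 2 groups fitted alone, after quantile normalization, or without hybrid cell replicate 2 or EPSC replicate 2 (limma adjusted p from 0.0519 to 0.119), with a log2 fold change of 0.14 after quantile normalization. Eif2s1, the alpha subunit that the stress kinases phosphorylate, was at 83.3 and 80.9 FPKM in ESCs, 39.7 and 43.7 in NSCs, 128 and 114 in EPSCs, and 150.1 and 137 in hybrid cells, in the same order, with hybrid cells above EPSCs (log2 fold change 0.25, SE 0.08, limma adjusted p = 0.0367). For Eif2s1 between hybrid cells and EPSCs, the call was lost without the filter, with the 2 groups fitted alone, or without ESC replicate 1, ESC replicate 2, hybrid cell replicate 1, or EPSC replicate 2 (limma adjusted p from 0.0614 to 0.167).

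Of the 5 eIF2B subunits, Eif2b5, which encodes the catalytic epsilon subunit (chr16:20498795-20509325), showed the largest difference between hybrid cells and EPSCs among the 62 genes. It was at 84.8 and 81.9 FPKM in ESCs, 37.7 and 35.9 in NSCs, 111 and 116 in EPSCs, and 226 and 201 in hybrid cells. Both hybrid cell libraries were above all others (log2 fold change 0.90, SE 0.07, limma adjusted p = 0.000175, against EPSCs). Compared with NSCs, its log2 fold change was 1.16 for ESCs, 1.60 for EPSCs, and 2.50 for hybrid cells (SE 0.07, limma adjusted p at most 1.51e-06). Eif2b2, the beta subunit, was at 42.6 and 42.3 FPKM in ESCs, 34.3 and 35.1 in NSCs, 42.6 and 42.6 in EPSCs, and 64.6 and 63.6 in hybrid cells. ESC and EPSC libraries of Eif2b2 overlapped, and hybrid cells were above both (log2 fold change 0.58, SE 0.05, limma adjusted p = 0.00023).

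Eif2b3, the gamma subunit of eIF2B, was at 31.0 and 31.1 FPKM in ESCs, 13.6 and 15.7 in NSCs, 52.9 and 53.2 in EPSCs, and 62.4 and 67.6 in hybrid cells, rising in the order NSCs, ESCs, EPSCs, and hybrid cells without overlap. The difference between hybrid cells and EPSCs passed the test (log2 fold change 0.29, SE 0.07, limma adjusted p = 0.0184), as did that between EPSCs and ESCs (log2 fold change 0.75, SE 0.07, limma adjusted p = 0.000141). For Eif2b3 between hybrid cells and EPSCs, the call was lost without hybrid cell replicate 2, EPSC replicate 1, or EPSC replicate 2 (limma adjusted p from 0.0572 to 0.0726). Eif2b4, the delta subunit, was at 24.4 and 24.1 FPKM in ESCs, 22.2 and 19.8 in NSCs, 46.4 and 46.0 in EPSCs, and 53.4 and 50.2 in hybrid cells. For this gene, ESCs were only slightly above NSCs (log2 fold change 0.20, SE 0.07, limma adjusted p = 0.0235), and EPSCs were well above ESCs (log2 fold change 0.90, SE 0.07, limma adjusted p = 4.33e-05). For Eif2b4 between ESCs and NSCs, the call was lost without ESC replicate 1, ESC replicate 2, or NSC replicate 2 (limma adjusted p from 0.0765 to 0.132), with a log2 fold change of 0.12 without NSC replicate 2. Eif2b1, the alpha subunit, had group means of 42.5 FPKM in ESCs, 24.0 in NSCs, 49.7 in hybrid cells, and 54.1 in EPSCs. Over the 7 genes, 5 were higher in hybrid cells than in EPSCs and none was lower, and 7 of 7 were higher in hybrid cells than in ESCs, against 22.5% and 21.9% of all genes higher and lower than in EPSCs and 35.3% higher than in ESCs. For Eif2b1 between hybrid cells and ESCs (log2 fold change 0.22, SE 0.07, limma adjusted p = 0.0318), the call was lost with the 2 groups fitted alone, after scaling to a common sum, or without ESC replicate 1, ESC replicate 2, hybrid cell replicate 1, NSC replicate 1, or NSC replicate 2 (limma adjusted p from 0.0538 to 0.141), with a log2 fold change of 0.12 without hybrid cell replicate 1. The median log2 fold change of these 7 genes was 0.27 between hybrid cells and EPSCs and 0.84 between hybrid cells and ESCs.

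**Figure D2:**
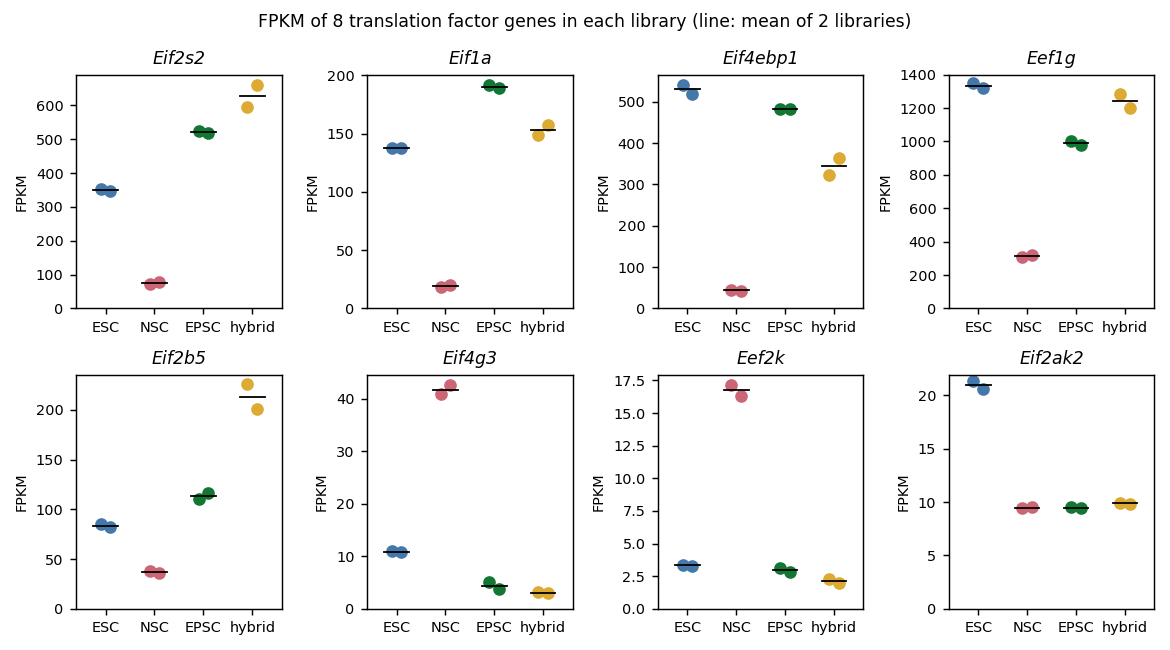
FPKM (y axis, linear from 0) of 8 translation factor genes in each library, with points for libraries and a line for the mean of 2 libraries, by group on the x axis. Eif2s2, Eif1a, Eif4ebp1, Eef1g, and Eif2b5 were lowest in NSCs, Eif4g3 and Eef2k were highest in NSCs, and Eif2ak2 was highest in ESCs.

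Eif2a and Eif2d encode separate proteins that can bring tRNA to the ribosome without the eIF2 complex. Eif2a was at 74.4 and 77.2 FPKM in ESCs, 24.99 and 27.0 in NSCs, 108 and 101 in EPSCs, and 82.4 and 76.8 in hybrid cells. NSCs were lowest, and hybrid cells were below EPSCs (log2 fold change −0.39, SE 0.07, limma adjusted p = 0.00323), with ESCs and hybrid cells overlapping. Eif2d was at 53.1 and 53.2 FPKM in ESCs, 17.4 and 18.6 in NSCs, 71.5 and 64.6 in EPSCs, and 107 and 99.4 in hybrid cells. Here hybrid cells were above EPSCs (log2 fold change 0.60, SE 0.07, limma adjusted p = 0.000845), so that the 2 genes differed between hybrid cells and EPSCs in opposite directions. Against NSCs, the log2 fold change of Eif2a was 1.51 for ESCs, 1.97 for EPSCs, and 1.58 for hybrid cells (SE 0.07, limma adjusted p at most 3.1e-07). That of Eif2d was 1.51 for ESCs, 1.86 for EPSCs, and 2.46 for hybrid cells (SE 0.07, limma adjusted p at most 4.25e-07).

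The 4 kinases of eIF2 alpha, which lower general initiation under stress, differed among each other in direction, with 1 higher and 2 lower than NSCs in ESCs, 1 higher and 1 lower in EPSCs, and 0 higher and 1 lower in hybrid cells. The shares of all genes higher and lower were 42.8% and 41.9%, 45.2% and 41%, and 44.5% and 42%. Their median log2 fold change against NSCs was 0.00 for ESCs, 0.09 for EPSCs, and −0.01 for hybrid cells. Eif2ak2 (PKR), which senses double-stranded RNA and is induced by interferon, was at 21.3 and 20.6 FPKM in ESCs, 9.41 and 9.53 in NSCs, 9.50 and 9.41 in EPSCs, and 9.94 and 9.86 in hybrid cells. ESCs were above all other libraries, also against NSCs (log2 fold change 1.07, SE 0.06, limma adjusted p = 1.27e-06), and EPSC and NSC libraries overlapped. Against NSCs, scaling to a common sum put EPSCs at −0.59 and hybrid cells at −0.53, and quantile normalization put them at 0.25 and 0.31. The difference of EPSCs from ESCs (log2 fold change −1.07, SE 0.06, limma adjusted p = 1.39e-05) and that of hybrid cells from ESCs (log2 fold change −1.01, SE 0.06, limma adjusted p = 1.17e-05) both passed the test, and that of hybrid cells from EPSCs did not (log2 fold change 0.06, SE 0.06, limma adjusted p = 0.457). Eif2ak3 (PERK), the sensor of stress in the endoplasmic reticulum, was at 8.28 and 9.08 FPKM in ESCs, 10.9 and 11.1 in NSCs, 6.91 and 7.18 in EPSCs, and 7.44 and 7.14 in hybrid cells. NSC libraries were highest, with a log2 fold change against NSCs of −0.31 for ESCs, −0.58 for EPSCs, and −0.53 for hybrid cells (SE 0.07, limma adjusted p at most 0.00496). Quantile normalization left Eif2ak3 in ESCs uncalled, at −0.08 with an adjusted p of 0.305.

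Eif2ak1 (HRI), the heme-regulated kinase, was at 20.8 and 21.9 FPKM in ESCs, 24.7 and 25.4 in NSCs, 29.9 and 27.4 in EPSCs, and 25.9 and 21.7 in hybrid cells. ESCs were below NSCs (log2 fold change −0.22, SE 0.09, limma adjusted p = 0.048), EPSCs were above ESCs (log2 fold change 0.41, SE 0.09, limma adjusted p = 0.00578), and hybrid cells were below EPSCs (log2 fold change −0.27, SE 0.09, limma adjusted p = 0.0463). For Eif2ak1 between ESCs and NSCs, the call was lost without the filter or without any 1 library other than hybrid cell replicate 1 and hybrid cell replicate 2 (limma adjusted p from 0.0518 to 0.193). That between hybrid cells and EPSCs was lost without the filter, with the 2 groups fitted alone, after quantile normalization, or without any 1 library other than hybrid cell replicate 1 (limma adjusted p from 0.0575 to 0.188), with a log2 fold change of −0.14 without hybrid cell replicate 2. Eif2ak4 (GCN2), the kinase that responds to uncharged tRNA, was at 7.73 and 7.32 FPKM in ESCs, 6.57 and 6.04 in NSCs, 7.43 and 8.35 in EPSCs, and 6.35 and 7.35 in hybrid cells. Libraries of the 4 groups lay close to each other, and of the 6 comparisons only that of EPSCs with NSCs was called (log2 fold change 0.28, SE 0.10, limma adjusted p = 0.0251). Its sign was the reverse after scaling to a common sum, at −0.27, and the same after quantile normalization, at 0.63. This call was also lost without EPSC replicate 2, NSC replicate 1, or NSC replicate 2 (limma adjusted p from 0.0525 to 0.143).

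The eIF3 complex, the scaffold on the small subunit, was represented by 14 genes, and 12 of them were higher than in NSCs in each of ESCs, EPSCs, and hybrid cells, whereas Eif3j1 and Eif3j2 were not called. Of all genes tested, 42.8%, 45.2%, and 44.5% were higher than in NSCs in these groups. Under scaling to a common sum, Eif3a and Eif3i turned lower in ESCs than in NSCs, Eif3h lost its call in hybrid cells, and Eif3f lost its call in EPSCs. The median log2 fold change of the 14 genes was 0.97 for ESCs, 1.20 for EPSCs, and 1.31 for hybrid cells. Subunits were closer to each other in level in NSCs than elsewhere. Without Eif3j1 and Eif3j2, the lowest subunit stood at 0.575 and 0.563 of the highest in NSCs, at 0.305 and 0.329 in ESCs, at 0.377 and 0.476 in EPSCs, and at 0.438 and 0.445 in hybrid cells.

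Eif3k, a small peripheral subunit, was at 419 and 415 FPKM in ESCs, 115 and 111 in NSCs, 474 and 415 in EPSCs, and 452 and 418 in hybrid cells. Only NSCs stood apart, with a log2 fold change against NSCs of 1.88 for ESCs, 1.97 for EPSCs, and 1.94 for hybrid cells (SE 0.07, limma adjusted p at most 1.77e-07). Eif3g, which takes part in scanning, was at 197 and 189 FPKM in ESCs, 104 and 107 in NSCs, 253 and 229 in EPSCs, and 339 and 313 in hybrid cells, and Eif3i was at 222 and 213 FPKM in ESCs, 154 and 148 in NSCs, 284 and 256 in EPSCs, and 379.6 and 373 in hybrid cells. Both were highest in hybrid cells without overlap, and Eif3g passed the test between hybrid cells and EPSCs (log2 fold change 0.44, SE 0.07, limma adjusted p = 0.00231). So did Eif3i (log2 fold change 0.48, SE 0.06, limma adjusted p = 0.0012). Eif3m was at 207 and 200.1 FPKM in ESCs, 93.4 and 94.6 in NSCs, 293 and 267 in EPSCs, and 306 and 294 in hybrid cells. EPSCs and hybrid cells were above ESCs for Eif3m, and hybrid cells were not called against EPSCs (log2 fold change 0.10, SE 0.06, limma adjusted p = 0.205).

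Eif3a, the largest subunit, was at 128 and 137 FPKM in ESCs, 96.0 and 99.8 in NSCs, 239 and 215 in EPSCs, and 263 and 229 in hybrid cells. EPSCs were above ESCs (log2 fold change 0.78, SE 0.08, limma adjusted p = 0.000197), and EPSC and hybrid cell libraries overlapped. Eif3f moved the other way, with 304 and 306 FPKM in ESCs, 111 and 114 in NSCs, 179 and 202 in EPSCs, and 198 and 198 in hybrid cells. ESC libraries of Eif3f were above all others, and EPSCs were lower than ESCs (log2 fold change −0.68, SE 0.06, limma adjusted p = 0.00011). The 6 remaining subunits Eif3b, Eif3c, Eif3d, Eif3e, Eif3h, and Eif3l had mean FPKM between 103 and 165 in NSCs and between 192 and 343 in the other groups. Of these, Eif3c (−0.35) and Eif3e (−0.38) were lower in hybrid cells than in EPSCs on the log2 scale, with limma adjusted p = 0.00455 and 0.00774, and the other 4 were not called.

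Eif3j1 and Eif3j2 encode the loosely bound j subunit and share much of their sequence, since 84% of the 100-base windows of the Eif3j2 transcripts occur in Eif3j1 and 33.4% of those of Eif3j1 occur in Eif3j2. Eif3j1 was at 0.0436 and 0.0477 FPKM in ESCs, 0.0488 and 20.2 in NSCs, 12.2 and 49.2 in EPSCs, and 29.9 and 23.6 in hybrid cells. Eif3j2 was at 17.5 and 16.7 FPKM in ESCs, 20.2 and 0.0947 in NSCs, 53.5 and 6.42 in EPSCs, and 30.0 and 27.8 in hybrid cells. Values of the 2 genes thus traded places between the libraries of NSCs and of EPSCs, and neither can be read on its own. Their sum was 17.5 and 16.7 FPKM in ESCs, 20.3 and 20.3 in NSCs, 65.7 and 55.6 in EPSCs, and 59.9 and 51.4 in hybrid cells. By this sum, EPSCs and hybrid cells were above ESCs and NSCs without overlap. In a fit that used the sum as 1 gene, added after the values were seen, EPSCs were higher than ESCs (log2 fold change 1.76, SE 0.10, limma adjusted p = 1.27e-05), and so were hybrid cells (log2 fold change 1.64, limma adjusted p = 1.15e-05). Hybrid cells and EPSCs were not called different in the sum (log2 fold change −0.12, limma adjusted p = 0.354). Eif3j1 alone gave 4.62 between EPSCs and ESCs with an SE of 1.25 (limma adjusted p = 0.0147), and this call was lost without ESC replicate 1, ESC replicate 2, or EPSC replicate 2, with adjusted p between 0.0668 and 0.0823.

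The eIF4 factors, which bring the ribosome to the cap, held 12 genes, of which 10 were tested. Against NSCs, 8 were higher and 1 lower in EPSCs, 6 higher and 3 lower in hybrid cells, and 6 higher and 1 lower in ESCs, where the shares of all genes were 45.2% and 41%, 44.5% and 42%, and 42.8% and 41.9%. After scaling to a common sum, Eif4a3, Eif4e, Eif4g1, and Eif4g2 turned lower in EPSCs than in NSCs, Eif4g1 in hybrid cells, and Eif4a3 and Eif4h in ESCs. Quantile normalization reversed the same genes in EPSCs and in ESCs. Eif4a1, the main RNA helicase of initiation, was at 1104 and 1109 FPKM in ESCs, 552 and 556 in NSCs, 1530.1 and 1386 in EPSCs, and 1838 and 1682 in hybrid cells. The groups did not overlap, and hybrid cells were highest (log2 fold change 0.27, SE 0.07, limma adjusted p = 0.0188, against EPSCs), a call that was lost with the 2 groups fitted alone, after quantile normalization, or without hybrid cell replicate 1 or EPSC replicate 2 (limma adjusted p from 0.0562 to 0.082). Eif4a2, a second form of the helicase, was at 219.7 and 217 FPKM in ESCs, 92.4 and 93.9 in NSCs, 308 and 303 in EPSCs, and 243 and 278 in hybrid cells, with EPSCs above hybrid cells (log2 fold change −0.23, SE 0.07, limma adjusted p = 0.0251). For Eif4a2 between hybrid cells and EPSCs, the call was lost with the 2 groups fitted alone or without any 1 library other than hybrid cell replicate 2 (limma adjusted p from 0.0506 to 0.0979), with a log2 fold change of −0.14 without hybrid cell replicate 1. Eif4a3, a helicase of the exon junction complex, was at 152 and 150.3 FPKM in ESCs, 124 and 118 in NSCs, 164 and 162 in EPSCs, and 212 and 199 in hybrid cells, with hybrid cells above EPSCs (log2 fold change 0.33, SE 0.05, limma adjusted p = 0.00261). Hybrid cells were thus below EPSCs for Eif4a2 and above them for Eif4a1 and Eif4a3, where the calls of Eif4a1 and Eif4a2 depended on the libraries and settings named.

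Eif4e, which encodes the cap-binding protein, was at 76.1 and 77.1 FPKM in ESCs, 80.7 and 83.2 in NSCs, 96.8 and 86.8 in EPSCs, and 73.0 and 73.3 in hybrid cells. EPSCs were highest, and hybrid cells were below EPSCs (log2 fold change −0.32, SE 0.06, limma adjusted p = 0.00507) and slightly below NSCs (log2 fold change −0.16, SE 0.06, limma adjusted p = 0.0357). For Eif4e between hybrid cells and NSCs, the call was lost without any 1 library other than EPSC replicate 1 and EPSC replicate 2 (limma adjusted p from 0.0644 to 0.138). Eif4e2, whose product binds the cap but not eIF4G and is known as a repressor, was at 80.4 and 77.9 FPKM in ESCs, 28.6 and 26.7 in NSCs, 93.9 and 86.6 in EPSCs, and 129 and 106 in hybrid cells. NSC libraries were lowest by far, with a log2 fold change against NSCs of 1.48 for ESCs, 1.67 for EPSCs, and 2.04 for hybrid cells (SE 0.10, limma adjusted p at most 2.82e-06). For Eif4e2, hybrid cells were above EPSCs (log2 fold change 0.37, SE 0.10, limma adjusted p = 0.0187), opposite to Eif4e. For Eif4e2 between hybrid cells and EPSCs, the call was lost with the 2 groups fitted alone or without hybrid cell replicate 1 or EPSC replicate 2 (limma adjusted p from 0.0515 to 0.0854), with a log2 fold change of 0.22 without hybrid cell replicate 1. Eif4e1b, a form known from the germ line, was listed at 0 in both NSC libraries and at 0.0567 to 0.265 FPKM in the others, and Eif4e3 lay between 0.165 and 0.838 FPKM in all libraries. Both genes were under the filter and were not tested.

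Of the 3 scaffold genes, Eif4g3 (chr4:137991779-138207086) had the largest fall against NSCs of all 62 genes in EPSCs and hybrid cells. It was at 10.9 and 10.8 FPKM in ESCs, 40.8 and 42.6 in NSCs, 5.12 and 3.70 in EPSCs, and 3.15 and 3.04 in hybrid cells. The groups did not overlap and stood in the order NSCs, ESCs, EPSCs, and hybrid cells, with a log2 fold change against NSCs of −1.85 for ESCs, −2.99 for EPSCs, and −3.38 for hybrid cells (SE 0.12, limma adjusted p at most 2.77e-06). EPSCs were below ESCs (log2 fold change −1.15, SE 0.12, limma adjusted p = 0.000179). Between hybrid cells and EPSCs, the difference was called (log2 fold change −0.39, SE 0.12, limma adjusted p = 0.0337) but was not called without the filter, in a fit of the 2 groups alone, or without any 1 of 7 libraries, that is all but EPSC replicate 2, with adjusted p between 0.0602 and 0.116 and a log2 fold change of −0.20 without EPSC replicate 1. Eif4g1, the main scaffold, was at 132 and 139 FPKM in ESCs, 155 and 160.3 in NSCs, 202 and 195 in EPSCs, and 266 and 215 in hybrid cells. EPSCs were above NSCs (log2 fold change 0.33, SE 0.09, limma adjusted p = 0.0117), with the reverse sign under both scalings and no call without EPSC replicate 1 or NSC replicate 1 (adjusted p of limma 0.0529 and 0.0692), and hybrid cells were above EPSCs without passing the test (log2 fold change 0.27, SE 0.09, limma adjusted p = 0.0553). Eif4g2, which lacks the site for eIF4E, was at 199 and 195 FPKM in ESCs, 207 and 219.9 in NSCs, 260.2 and 239 in EPSCs, and 199 and 179 in hybrid cells. Hybrid cells were below EPSCs for Eif4g2 (log2 fold change −0.40, SE 0.07, limma adjusted p = 0.004), where the 2 groups did not overlap. Against NSCs, Eif4g2 was lower in hybrid cells (log2 fold change −0.18, SE 0.07, limma adjusted p = 0.0487), a call that was lost without the filter, with the 2 groups fitted alone, or without ESC replicate 1, ESC replicate 2, hybrid cell replicate 2, NSC replicate 1, or NSC replicate 2 (limma adjusted p from 0.0626 to 0.249), with a log2 fold change of −0.10 without hybrid cell replicate 2. Eif4b and Eif4h, which help the helicase, had mean FPKM of 134 and 176 in NSCs and of 326 and 180.3 in EPSCs.

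The 4E-binding proteins hold eIF4E away from the scaffold when mTOR activity is low. Eif4ebp1 (chr8:27260327-27275656) was at 541 and 519 FPKM in ESCs, 45.0 and 41.9 in NSCs, 482 and 483 in EPSCs, and 323 and 365 in hybrid cells. NSC libraries were far below all others, and the log2 fold change against NSCs was 3.58 for ESCs, 3.44 for EPSCs, and 2.95 for hybrid cells (SE 0.07, limma adjusted p at most 1.6e-08), the largest of the 62 genes in ESCs and EPSCs. Hybrid cells were below EPSCs (log2 fold change −0.49, SE 0.07, limma adjusted p = 0.00175) and below ESCs (log2 fold change −0.63, SE 0.07, limma adjusted p = 0.00019). Eif4ebp2, a second form of the inhibitor, was at 64.2 and 67.1 FPKM in ESCs, 61.2 and 62.4 in NSCs, 69.7 and 73.5 in EPSCs, and 58.5 and 58.9 in hybrid cells. Its levels were close to each other in all groups, with hybrid cells lowest (log2 fold change −0.28, SE 0.05, limma adjusted p = 0.00444, against EPSCs). Eif4ebp3 was at 13.8 and 14.7 FPKM in ESCs, 7.23 and 6.75 in NSCs, 7.23 and 7.75 in EPSCs, and 9.27 and 11.5 in hybrid cells. ESCs were highest and NSC and EPSC libraries overlapped, but 62.8% of the windows of this gene occur in another annotated transcript, so that its values are uncertain. Eif4enif1, which carries eIF4E into the nucleus, had group means between 22.6 FPKM in NSCs and 32.9 FPKM in ESCs. Under scaling to a common sum, the calls against NSCs reversed for Eif4enif1 in all 3 groups, for Eif4ebp2 in EPSCs, and for Eif4ebp3 in hybrid cells, and quantile normalization reversed that of Eif4ebp2 in EPSCs.

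Among the 9 genes of elongation, 7 of the 8 tested were higher than in NSCs in each of the 3 pluripotent groups, and Eif5a2 was lower, where 42.8% to 45.2% of all genes were higher. Under scaling to a common sum, Eef2 turned lower in hybrid cells, and after quantile normalization Eef2 turned lower in all 3 groups and Eif5a in EPSCs and ESCs. Quantile normalization gives a gene of the same rank in every library the same value. The difference of Eef1a1, which became 0.00 after it, thus reflects rank and does not bear on its level. Eef1a1 was at 7893 and 7540.0 FPKM in ESCs, 4548 and 4456 in NSCs, 8788 and 7886 in EPSCs, and 8184 and 8189.5 in hybrid cells. All other libraries were above those of NSCs (log2 fold change 0.89, SE 0.08, limma adjusted p = 2.15e-05, for EPSCs), and EPSC and hybrid cell libraries overlapped. Eef1a2, the form found in muscle and neurons, was between 0 and 0.281 FPKM in all libraries and was not tested. Transcripts of Eef1a1 shared 16.3% and those of Eef1g 32.4% of their 100-base windows with other annotated genes, so that some uncertainty of assignment remains for both.

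Eef1b2, Eef1d, and Eef1g form the complex that recharges eEF1A with GTP. Eef1b2 was at 800.4 and 790.2 FPKM in ESCs, 198 and 195 in NSCs, 633 and 558 in EPSCs, and 679 and 655 in hybrid cells. The groups were ordered NSCs, EPSCs, hybrid cells, and ESCs without overlap, and EPSCs were below ESCs (log2 fold change −0.42, SE 0.07, limma adjusted p = 0.00135). Eef1g was at 1349 and 1320.5 FPKM in ESCs, 309.8 and 319 in NSCs, 1001 and 977 in EPSCs, and 1286 and 1199.7 in hybrid cells, in the same order. Its log2 fold change against NSCs was 2.08 for ESCs, 1.65 for EPSCs, and 1.98 for hybrid cells (SE 0.06, limma adjusted p at most 9.51e-08), EPSCs were below ESCs (log2 fold change −0.43, SE 0.06, limma adjusted p = 0.000542), and hybrid cells were above EPSCs (log2 fold change 0.33, SE 0.06, limma adjusted p = 0.00374). For Eef1d, EPSCs were above ESCs by 0.30 on the log2 scale (SE 0.08, limma adjusted p = 0.0138), a call that was lost after quantile normalization or without ESC replicate 1, ESC replicate 2, or EPSC replicate 1 (limma adjusted p from 0.0587 to 0.181), with a log2 fold change of 0.09 after quantile normalization and 0.19 without EPSC replicate 1. Eef1e1, whose product belongs to the complex of tRNA synthetases, was at 107 and 111 FPKM in ESCs, 48.6 and 51.6 in NSCs, 128 and 129 in EPSCs, and 94.4 and 102 in hybrid cells, with hybrid cells below EPSCs (log2 fold change −0.38, SE 0.06, limma adjusted p = 0.00225).

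Eif5a, which helps the ribosome over stretches of proline and is the protein modified by hypusine, was at 1043 and 1018 FPKM in ESCs, 608 and 679.5 in NSCs, 1498 and 1307 in EPSCs, and 1744 and 1537 in hybrid cells. NSC libraries were lowest and hybrid cell libraries highest, without passing the test between hybrid cells and EPSCs (log2 fold change 0.23, SE 0.10, limma adjusted p = 0.0948). Eif5a2, the second gene, was at 4.97 and 4.97 FPKM in ESCs, 7.83 and 8.24 in NSCs, 4.23 and 4.25 in EPSCs, and 2.85 and 3.26 in hybrid cells. Here NSCs were highest and hybrid cells lowest, the mirror of Eif5a, with a log2 fold change against NSCs of −0.60 for ESCs, −0.79 for EPSCs, and −1.16 for hybrid cells (SE 0.08, limma adjusted p at most 0.000224). Between hybrid cells and EPSCs, Eif5a2 fell as well (log2 fold change −0.37, SE 0.08, limma adjusted p = 0.00931). For Eif5a2 between hybrid cells and EPSCs, the call was lost with the 2 groups fitted alone (limma adjusted p = 0.0664).

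Eef2, the translocase, was at 2002 and 1946 FPKM in ESCs, 1027 and 957 in NSCs, 1696 and 1564 in EPSCs, and 1408 and 1370.3 in hybrid cells and is named here, outside the rule for named genes, as the target of Eef2k. ESCs were highest, and hybrid cells were below EPSCs (log2 fold change −0.23, SE 0.07, limma adjusted p = 0.0289). For Eef2 between hybrid cells and EPSCs, the call was lost without the filter, with the 2 groups fitted alone, or without any 1 library other than EPSC replicate 2 (limma adjusted p from 0.0526 to 0.108). Eef2k (chr7:120842642-120907219), the kinase that phosphorylates and inactivates eEF2, was at 3.38 and 3.31 FPKM in ESCs, 17.2 and 16.3 in NSCs, 3.09 and 2.82 in EPSCs, and 2.26 and 2.01 in hybrid cells. NSC libraries were above all others, and the order NSCs, ESCs, EPSCs, and hybrid cells held without overlap. Its log2 fold change against NSCs was −2.03 for ESCs, −2.17 for EPSCs, and −2.50 for hybrid cells (SE 0.08, limma adjusted p at most 2.18e-07), and hybrid cells were below EPSCs (log2 fold change −0.34, SE 0.08, limma adjusted p = 0.0147). For Eef2k between hybrid cells and EPSCs, the call was lost with the 2 groups fitted alone or without EPSC replicate 1 (limma adjusted p from 0.0589 to 0.0936). The levels of Eef2k were low, and the added constant of 1 understates the fold change of low genes. Eef2kmt, which methylates eEF2, was at 9.02 and 7.95 FPKM in ESCs, 6.82 and 6.79 in NSCs, 11.1 and 10.4 in EPSCs, and 14.5 and 16.5 in hybrid cells, with hybrid cells highest (log2 fold change 0.49, SE 0.09, limma adjusted p = 0.00472, against EPSCs). Scaling to a common sum turned Eef2kmt lower in ESCs than in NSCs, at −0.22. In the sequences shown above, the E-box letters occur upstream of both Eef2 and Eef2k.

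Termination is carried by eRF1, encoded by Etf1, and the GTPase eRF3, encoded by Gspt1 and Gspt2. Etf1 was at 169 and 167 FPKM in ESCs, 64.3 and 69.1 in NSCs, 221 and 207 in EPSCs, and 182 and 178 in hybrid cells. NSCs were lowest and EPSCs highest without overlap, and hybrid cells were below EPSCs (log2 fold change −0.25, SE 0.06, limma adjusted p = 0.0109). For Etf1 between hybrid cells and EPSCs, the call was lost with the 2 groups fitted alone or without EPSC replicate 1 (limma adjusted p from 0.0529 to 0.0545). Gspt1 was at 43.2 and 44.8 FPKM in ESCs, 52.5 and 53.8 in NSCs, 55.5 and 54.3 in EPSCs, and 57.3 and 53.8 in hybrid cells, and was lower in ESCs than in NSCs (log2 fold change −0.27, SE 0.05, limma adjusted p = 0.00198). EPSCs and hybrid cells were not called against NSCs for Gspt1, where scaling to a common sum gave −0.56 and −0.55 and quantile normalization −0.24 and −0.21. Gspt2, a copy on the X chromosome, was at 7.06 and 7.09 FPKM in ESCs, 9.07 and 9.54 in NSCs, 6.81 and 7.54 in EPSCs, and 8.995 and 8.35 in hybrid cells. ESCs were below NSCs for Gspt2 (log2 fold change −0.35, SE 0.08, limma adjusted p = 0.00366), a call that was lost after quantile normalization, with an adjusted p of 0.357. In EPSCs, Gspt2 was below NSCs as well (log2 fold change −0.34, SE 0.08, limma adjusted p = 0.00452), a call lost after quantile normalization (limma adjusted p = 0.452), with a log2 fold change of −0.06 after quantile normalization. Etf1, by comparison, was higher than NSCs in each of the other groups (log2 fold change 1.67, SE 0.06, limma adjusted p = 8.59e-08, for EPSCs against NSCs). Eif6, which keeps the ribosomal subunits apart during their assembly, and Eif1ad had mean FPKM of 48.9 and 24.6 in NSCs and of 134 and 46.4 in hybrid cells. Eif6 was higher in hybrid cells than in EPSCs (log2 fold change 0.36, SE 0.06, limma adjusted p = 0.00365).

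**Figure D3:**
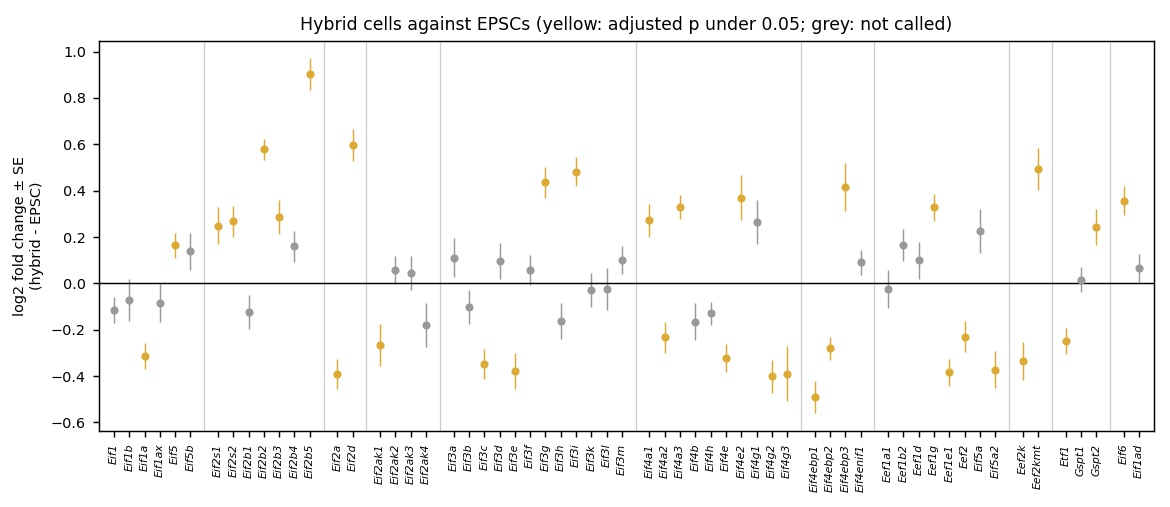
Log2 fold change of hybrid cells against EPSCs (y axis, ± standard error, log2(FPKM + 1) scale) for each gene ordered by role, yellow where limma called the gene and grey where it did not. Eif2b5 is highest at 0.90 and Eif4ebp1 lowest at −0.49, and yellow points stand on both sides of 0.

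The hybrid cells were set against both fusion partners by a count that was added after the values were seen. For 24 of the 62 genes (38.7%), both hybrid cell libraries were above every EPSC and NSC library, as they were for 18.7% of all genes tested. For 7 genes (11.3%), both were below every EPSC and NSC library, against 16.2% of all genes, and the other 31 lay between or overlapped. These shares are not like for like, since counted genes must also lie above, or below, NSCs. By limma, 74.2% of the 62 genes exceeded NSCs in the hybrid group and 11.3% fell below, against 44.5% and 42% of all genes. Set against EPSCs, calls were closer, at 27.4% above and 25.8% below, against 22.5% and 21.9%. Whether the counts exceed what the low NSC levels give was not tested. The same limit holds for the other settings below. Above both partners were Eif5, Eif5b, Eif2s1, Eif2s2, Eif2b2, Eif2b3, Eif2b4, Eif2b5, Eif2d, Eif2ak2, Eif3g, Eif3i, Eif3m, Eif4a1, Eif4a3, Eif4e2, Eif4g1, Eif4ebp3, Eif4enif1, Eef1b2, Eef1g, Eif5a, Eef2kmt, and Eif6. This set held 6 of the 7 eIF2 and eIF2B genes. The count rests on the order of libraries alone. Of the set, Eif5b, Eif2b4, Eif2ak2, Eif3m, Eif4g1, Eif4enif1, Eef1b2, and Eif5a were not called by limma between hybrid cells and EPSCs. Eif2ak2 was not called against NSCs either. Below both partners were Eif4h, Eif4e, Eif4g2, Eif4g3, Eif4ebp2, Eif5a2, and Eef2k, of which 5 belong to the eIF4 factors and their binding proteins, as did 6 of the genes above both partners. Hybrid cells were not called against either partner for Eif4h, nor against NSCs for Eif4ebp2. With FPKM scaled to a common sum, 20 genes were above and 9 below, where 13.6% and 22.4% of all genes were. Leaving out 1 library of NSCs, EPSCs, or hybrid cells at a time gave 24 to 31 genes above and 7 or 8 below. Of all genes, 19.1% to 24.2% were then above and 16.4% to 21.4% below. As fibroblast markers also summed highest in hybrid cells, at 244 to 327 FPKM, the part of feeder cells in these counts was not tested.

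Ratios of paralogs within a library do not change when its values are multiplied by a common factor, and they were compared by the overlap of libraries, since an exact two-sided permutation test of 2 against 2 cannot give a p below 0.33. The log2 ratio of Eif1ax to Eif1a was 0.18 and 0.15 in ESCs, 2.90 and 2.77 in NSCs, 0.32 and 0.11 in EPSCs, and 0.54 and 0.35 in hybrid cells. In NSCs, Eif1a was thus at 13.4% and 14.7% of the level of Eif1ax, and elsewhere at 68.7% to 92.6%. For Eif1 over Eif1b, the log2 ratio was 4.10 and 4.01 in ESCs, 1.61 and 1.74 in NSCs, 3.81 and 4.09 in EPSCs, and 3.85 and 3.96 in hybrid cells. NSCs alone stood apart, with Eif1b at 32.7% and 29.9% of Eif1. Eif4ebp2 over Eif4ebp1 gave −3.07 and −2.95 in ESCs, 0.44 and 0.58 in NSCs, −2.79 and −2.72 in EPSCs, and −2.46 and −2.63 in hybrid cells. The order of the 2 binding proteins was hence reversed in NSCs, where Eif4ebp2 was the higher one.

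A graded pattern was seen for the scaffold genes, where Eif4g1 over Eif4g3 gave 3.60 and 3.68 in ESCs, 1.93 and 1.91 in NSCs, 5.30 and 5.72 in EPSCs, and 6.40 and 6.15 in hybrid cells on the log2 scale. No group overlapped with another in this ratio, and Eif4g3 went from 26.3% and 26.6% of Eif4g1 in NSCs to 1.18% and 1.41% in hybrid cells. Eif5a over Eif5a2 was ordered in the same way, with 7.71 and 7.68 in ESCs, 6.28 and 6.37 in NSCs, 8.47 and 8.27 in EPSCs, and 9.26 and 8.88 in hybrid cells. Eif4e over Eif4e2 gave −0.08 and −0.02 in ESCs, 1.50 and 1.64 in NSCs, 0.04 and 0.00 in EPSCs, and −0.82 and −0.53 in hybrid cells. Eif4e was the higher gene in NSCs, both were about equal in ESCs and EPSCs, and Eif4e2 was the higher gene in hybrid cells, at 177% and 144% of Eif4e. Gspt1 over Gspt2 lay between 2.50 and 3.03 over all libraries and Eif4a1 over Eif4a2 between 2.19 and 2.92, a narrower range, but the libraries of the 4 groups did not overlap in either ratio.

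**Figure D4:**
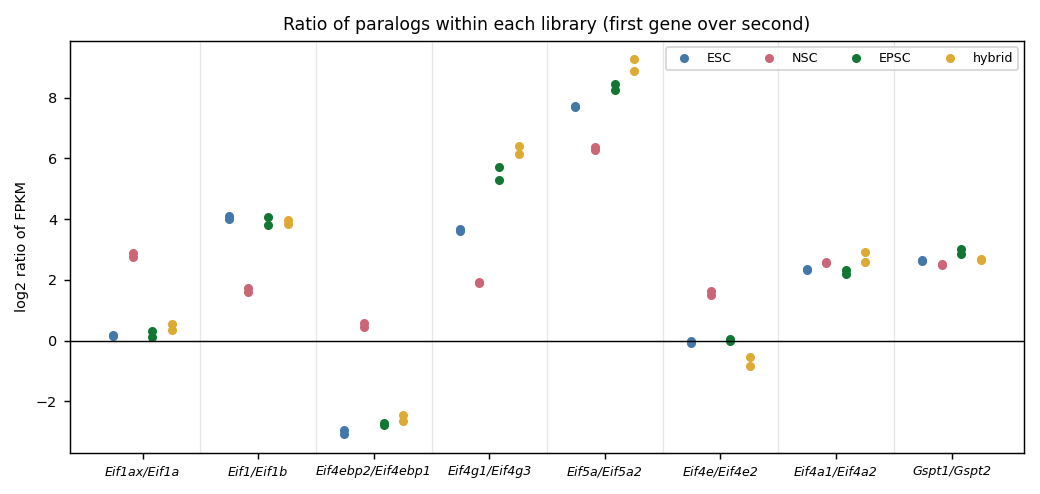
Log2 ratio of the FPKM of 2 paralogs (y axis) in each library, by pair on the x axis and coloured by group, with 1 point for each library. NSC libraries lie apart from all others for Eif1ax/Eif1a, Eif1/Eif1b, Eif4ebp2/Eif4ebp1, Eif4g1/Eif4g3, Eif5a/Eif5a2, and Eif4e/Eif4e2. They also do so for Gspt1/Gspt2, where the libraries of all groups lie in a narrower range of 2.50 to 3.03.

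A list of 43 further genes of the translation pathway, such as poly(A)-binding proteins, mTOR components, and modifiers of eEF2, was examined in the same fit, and 41 were found and tested. Against NSCs, 29 were higher and 5 lower in EPSCs, 27 higher and 6 lower in hybrid cells, and 26 higher and 9 lower in ESCs, with medians of 0.61, 0.64, and 0.50. Between hybrid cells and EPSCs, 8 were higher and 13 lower with a median of −0.08, where the initiation and elongation factors had a median of 0.06. EPSCs were higher than ESCs in 16 and lower in 9, and hybrid cells were higher than ESCs in 13 and lower in 12. The shares of all genes called are those given above for each comparison, which hold for FPKM as deposited only. The split against NSCs depended on scaling, an alternative added after the values were seen. After scaling to a common sum, 18 were higher and 16 lower in EPSCs, 15 and 17 in hybrid cells, and 18 and 17 in ESCs, with medians of 0.01, 0.04, and −0.04, which relative to all genes are 0.49, 0.55, and 0.43. Quantile normalization gave 29 higher and 4 lower in EPSCs, 29 and 6 in hybrid cells, and 29 and 4 in ESCs. Medians relative to all genes were then 0.52, 0.48, and 0.42. The genes of this list named next kept their direction under both scalings, and the only call lost was that of Mknk1 after quantile normalization (limma adjusted p = 0.0601, log2 fold change −0.22).

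Pabpc4, a poly(A)-binding protein that bridges to eIF4G, was at 180.1 ± 4.92 FPKM for hybrid cells, against 35.4 ± 2.09 for NSCs (SD, n = 2, log2 fold change 2.31, SE 0.06, limma adjusted p = 2.33e-08). Pabpc1, the main such protein, was at 835 ± 27.4 FPKM for EPSCs, against 288 ± 11.8 for NSCs (SD, n = 2, log2 fold change 1.53, SE 0.06, limma adjusted p = 1.44e-07). Mcts2, a relative of the ribosome recycling factor Mcts1, was at 58.9 ± 0.538 FPKM for hybrid cells, against 14.1 ± 1.53 for NSCs (SD, n = 2, log2 fold change 2.00, SE 0.08, limma adjusted p = 1.89e-07). Rictor, of the second mTOR complex, was higher in EPSCs than in NSCs (log2 fold change 1.53), while Rptor, of the first, was lower (−0.61), as were Mtor (−0.43) and Pdcd4 (−0.76), an inhibitor of eIF4A. Paip1, a partner of the poly(A)-binding proteins, and Gcn1l1, an activator of the kinase encoded by Eif2ak4, fell below NSCs in hybrid cells, with log2 fold changes of −0.50 and −0.47. Mknk1, a kinase of eIF4E, was lower in ESCs than in NSCs (−0.51), as were Paip1 (−0.72) and Mtor (−0.50).

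Between ESCs and NSCs, the largest differences on this list were those of 2 regulators of the eIF2 alpha response. Impact, an imprinted gene whose product restrains the kinase of Eif2ak4, was at 184 ± 0.358 FPKM for ESCs, against 17.5 ± 0.0402 for NSCs (SD, n = 2, log2 fold change 3.33, SE 0.08, limma adjusted p = 1.43e-08). It was lower in EPSCs than in ESCs (log2 fold change −1.85) and lower again in hybrid cells, at 27.7 ± 1.66 FPKM for hybrid cells, against 50.4 ± 5.23 for EPSCs (SD, n = 2, log2 fold change −0.83, SE 0.08, limma adjusted p = 0.000373). Ppp1r15a, a subunit of the phosphatase that removes phosphate from eIF2 alpha, was at 66.7 ± 0.656 FPKM for ESCs, against 8.08 ± 1.23 for NSCs (SD, n = 2, log2 fold change 2.91, SE 0.10, limma adjusted p = 9.93e-08), and it was lower than in ESCs in EPSCs (−1.38) and hybrid cells (−1.90). Genes of diphthamide synthesis, the modification of eEF2, went apart between hybrid cells and EPSCs, with Dph1 higher (0.55) and Dph3 lower (−0.63) in hybrid cells. In the same comparison, Mcts2 (0.49) and Rps6kb2 (0.41), a kinase of ribosomal protein S6, were higher, and Paip1 (−0.56) was lower. Against ESCs, Pabpc4 (0.76), Pelo (0.78), a ribosome rescue factor, and Dph1 (1.05) were higher in hybrid cells, and Mknk2 (−0.61) was lower. For EPSCs against ESCs, Paip1 (0.78), Pabpc4 (0.73), and Pelo (0.67) were higher and Rps6kb2 (−0.73) lower.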

How the data were processed

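RNA sequencing covered 8 libraries in 4 groups of 2, read from the labels. Poly(A) libraries (TruSeq Stranded, paired-end reads of 100 bases) were aligned by the authors to mm10 with STAR 2.7.9a and quantified with Cuffnorm of Cufflinks 2.2.1, and the deposited values are FPKM for each gene and library. Annotation, strand setting, and library normalization are not given in the sources used here. As NSC libraries summed lower, a shift in scale moves every comparison with NSCs. All columns were mapped to samples, with 0 left over.

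Genes whose mean reached 1 FPKM in any group were fitted on log2(FPKM + 1) with limma 3.58.1 (lmFit, contrasts, eBayes with trend, R 4.3.3) over 4 groups and 6 comparisons, with 4 residual degrees of freedom, two-sided tests, and Benjamini-Hochberg adjustment over 13239 genes. The fit was also run on simulated data with known changes added in NSCs, which covers neither small differences between hybrid cells and EPSCs nor a shift in scale. Positions and promoter sequences came from RefSeq on GRCm38.p6, matched by symbol for 65 of 65 genes, and shared windows of 100 bases from GENCODE M21 transcripts. Depth was derived from FPKM steps with an assumed fragment length of 200 bases. Python 3.11.15 with pandas 2.3.3 was used.

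The genes, their roles, and the further list were chosen with earlier results of these data known. By rule, library values were given for paralog groups, for genes past the size rule of the study's methods, and for the 5 largest called changes in each direction per comparison without overlap of libraries. Of the further list, the 3 largest called changes in each direction were named. Replicate numbers come from the labels alone. Alternatives covered the added constant, the filter, scaling, the groups fitted, the replicate block, thresholds, and each library left out.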

Additional observations from a re-analysis of the deposited data

How the results depend on the processing

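Over 958 recomputed values of 60 named differences, 942 kept direction and call, 16 kept direction but lost the call, and 0 reversed. Those that lost it were Eif4g3 for hybrid cells against EPSCs under 9 settings, Gspt2 for ESCs against NSCs after quantile normalization, and Eif3j1 against ESCs without single libraries (adjusted p of limma 0.0515 to 0.0823). These 60 were picked as the 5 largest called changes in each direction per comparison without overlap of libraries, a choice that favours stable calls. Over all translation factor genes called, 15 of 33 lost the call or reversed under at least 1 setting for hybrid cells against EPSCs, 11 of 53 for hybrid cells against NSCs, 16 of 55 for EPSCs against NSCs, 17 of 54 for ESCs against NSCs, 13 of 43 for EPSCs against ESCs, and 12 of 44 for hybrid cells against ESCs. Among the translation factor genes called against NSCs, scaling to a common sum reversed 24 directions over the 3 comparisons and quantile normalization 13. Requiring a change over 2-fold lowered the genes called from 33 to 0 for hybrid cells against EPSCs, from 53 to 34 for hybrid cells against NSCs, from 55 to 34 for EPSCs against NSCs, from 54 to 25 for ESCs against NSCs, from 43 to 3 for EPSCs against ESCs, and from 44 to 7 for hybrid cells against ESCs. No shares of all genes are set beside these counts, which show the loss of calls only. A fit of hybrid cells and EPSCs alone called 19, with fewer libraries behind the spread. With both thresholds of the size rule at 2, 36 genes met it for hybrid cells against NSCs, 36 for EPSCs against NSCs, 27 for ESCs against NSCs, 3 for EPSCs against ESCs, and 7 for hybrid cells against ESCs, where 26.1%, 25.7%, 24.5%, 7.07%, and 8.93% of all genes met it. After scaling to a common sum, 8 met it for hybrid cells against NSCs and 5 for EPSCs against NSCs, where 20.6% and 20.1% of all genes did. Shares for the size rule are of all 24354 genes, including those at 0 in every library. Leaving out 1 library gave 0 to 1 genes past the size rule for hybrid cells against EPSCs and 1 to 2 for EPSCs against ESCs. It gave 24 to 28 genes called for hybrid cells against EPSCs, and 34 to 46 for EPSCs against ESCs. Where a group was left with 1 library, that library was assumed to vary like the other groups.

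Deviations of equally numbered libraries correlated across genes with r between −0.112 and 0.28, and there are only 2 pairs, so that the replicate numbers were not taken to pair the samples. With the replicate block, 32 genes were called for hybrid cells against EPSCs, 55 for hybrid cells against NSCs, 55 for EPSCs against NSCs, 54 for ESCs against NSCs, 45 for EPSCs against ESCs, and 45 for hybrid cells against ESCs. Of the genes called without it, Gspt2 for hybrid cells against EPSCs was not called with the block (adjusted p of limma 0.052), nor under scaling to a common sum, in a fit of the 2 groups, or without any 1 library other than hybrid cell replicate 2 and EPSC replicate 2 (0.0701 to 0.156).

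With 2 libraries of 1 line in each group, differences cannot be extended to other lines or fusions. On a 2-kb transcript, 3 fragments amount to 0.051 to 0.0755 FPKM, depending on the library. Levels under this limit, such as those of Eef1a2 and Eif4e1b in some libraries, rest on very few fragments.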
